A study of Mus musculus with 24 samples.

Results

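The erythroid transcripts of the mouse retina were followed through 7 genes: Alas2, Hba-a1, Hba-a2, Hbb-bt, Hbb-bs, Hbb-bh1 and Slc4a1. Their probe sets were found by the symbol that the platform annotation gives, alone or among several. This rule took 7 of the 13319 genes that the annotation names and 13 of the 22690 probe sets on the array. The genes were selected on measured values, namely the lower Alas2 signal in hyperoxia averaged over the ages, so the differences between hyperoxia and room air are given for them as a description, without a test. The tests concern age and the change of the oxygen difference with age, which in this balanced design use other combinations of the same arrays.

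Retinal total RNA of C57Bl/6 mouse pups was hybridised to 24 oligonucleotide arrays. The 8 groups of 3 arrays were retinas of postnatal day 7 after 12 hours of hyperoxia, day 8 after 24 hours, day 10 after 72 hours and day 12 after 120 hours, each with retinas of the same day in room air. All pups were of the same strain, age and hours of exposure rise together, and the labels give neither the oxygen level nor how many pups stand behind an array or whether replicates are separate animals. What the p-values gauge is therefore the scatter of these arrays, part or all of which could be technical.

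Mature red blood cells carry hemoglobin, a tetramer of alpha and beta globin chains that each hold a heme. Alas2 encodes the erythroid form of the enzyme that starts heme synthesis, Hba-a1 and Hba-a2 encode the adult alpha chain, Hbb-bt and Hbb-bs the adult beta chains of C57BL/6 mice, Hbb-bh1 an embryonic beta-like chain, and Slc4a1 the anion exchanger band 3 of the red cell membrane. Red cells lose their nucleus, but young ones, the reticulocytes, still hold globin mRNA, so these transcripts can reach a tissue extract with the blood in its vessels. In bulk retina, fewer erythroid cells and less RNA per erythroid cell cannot be told apart.

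Upstream sequences are shown because the adult globins and Alas2 varied together from array to array, as described further on. RefSeq promoter windows (GRCm38.p6) were at hand for 5 of the 7 genes, and the 250 bases before the annotated start of 4 of them are printed 5′ to 3′ along the gene. Capitals mark AGATAA or TGATAA, the core bound by GATA factors, CCNCNCCC, the core bound by KLF factors, and CCAAT, each searched on both strands, where matches may overlap. The Alas2 window is chrX:150547167-150547416, plus strand, that of Hba-a1 chr11:32283422-32283671, plus strand, that of Hbb-bt chr7:103813924-103814173, minus strand, and that of Hbb-bs chr7:103827929-103828178, minus strand.
Alas2: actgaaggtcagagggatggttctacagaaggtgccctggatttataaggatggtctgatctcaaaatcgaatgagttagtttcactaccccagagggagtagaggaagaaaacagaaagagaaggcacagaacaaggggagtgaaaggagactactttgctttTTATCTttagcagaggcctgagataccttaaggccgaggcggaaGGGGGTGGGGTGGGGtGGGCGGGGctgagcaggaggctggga
Hba-a1: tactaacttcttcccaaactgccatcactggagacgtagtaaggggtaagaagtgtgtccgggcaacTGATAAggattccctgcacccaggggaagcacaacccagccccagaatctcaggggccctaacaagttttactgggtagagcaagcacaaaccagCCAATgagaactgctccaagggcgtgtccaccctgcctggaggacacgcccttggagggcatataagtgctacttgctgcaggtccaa
Hbb-bt: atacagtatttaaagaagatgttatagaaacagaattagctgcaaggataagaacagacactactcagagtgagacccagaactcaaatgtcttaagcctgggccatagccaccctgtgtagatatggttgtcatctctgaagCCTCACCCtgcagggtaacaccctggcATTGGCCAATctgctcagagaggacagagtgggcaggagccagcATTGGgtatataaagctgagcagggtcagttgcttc
Hbb-bs: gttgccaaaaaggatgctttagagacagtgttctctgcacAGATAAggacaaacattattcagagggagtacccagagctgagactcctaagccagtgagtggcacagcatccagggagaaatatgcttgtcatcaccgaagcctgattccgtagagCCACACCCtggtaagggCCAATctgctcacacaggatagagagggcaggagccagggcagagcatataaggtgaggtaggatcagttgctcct
The window of Hba-a2, chr11:32296242-32296491, plus strand, shares an unbroken run of 247 of 250 bases with that of Hba-a1 and is not printed. The 2 beta globin windows share no run over 14 bases. A GATA core was found for Alas2, Hba-a1, Hba-a2 and Hbb-bs and not for Hbb-bt, against 16.6% of all 32851 promoter windows of the same length. CCNCNCCC stood in the windows of Alas2, Hbb-bt and Hbb-bs, against 45.9% of all windows, and CCAAT in those of the 4 globin genes, against 33.8%. These matches describe the letters and do not show binding, and their part in the shared variation from array to array was not tested.

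Of the 13 probe sets, 5 were bright enough to be tested and 8 were not. Values under an intensity of 135.6, the 20th percentile of the deposited table, were raised to that floor, 7.08 on the log2 scale, and a probe set was tested where its mean over the 24 arrays reached 7.91. The 5 tested probe sets are 1451675_a_at for Alas2, 1428361_x_at, 1452757_s_at and 1417714_x_at, each annotated to both Hba-a1 and Hba-a2, and 1417184_s_at, annotated to Hbb-bt, Hbb-bs, Hbb-b2 and Hbb-b1. In the order given, the alpha globin probe sets are called the brightest, the other bright and the faint one. The globin probe sets carry several symbols, so the signal of one alpha or beta gene could not be separated from that of its near copies.

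The 8 remaining probe sets gave no usable level. All 3 for the embryonic Hbb-bh1 were at the floor on all 24 arrays, with deposited intensities of at most 91.6. For Slc4a1 the 3 probe sets were above the floor on 4, 4 and 11 arrays. The one seen on 11 arrays was above it on 3 of 12 hyperoxia arrays and 8 of 12 room air arrays, with medians of the deposited intensity of 112.7 and 161.3. Of the others, 1416464_at was above the floor on 1 hyperoxia array and 3 room air arrays, with medians of 36.75 and 73.1. For 1431743_a_at the counts were 2 and 2, and the median was higher in hyperoxia, at 56.55 against 39.35. A probe set with the single symbol Hba-a2 was above the floor on 4 of 12 hyperoxia arrays and 7 of 12 room air arrays, and one with the single symbol Hba-a1 on 9 and 10. With no filter set, their log2 differences, hyperoxia minus room air averaged over the ages, were -0.09 and -0.08. At day 10 the mean of this Hba-a2 probe set was higher in hyperoxia, at 7.22 against 7.08, and on the other days it was lower. The label of the set thus rests, in these data, on adult globins and Alas2 alone.

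Other defining genes of red cells and their precursors were faint. Of 9 such genes, 6 had a probe set with their symbol alone. Epb42, a cytoskeletal protein of the red cell membrane, and Hemgn, an erythroid nuclear protein, were at the floor on all 24 arrays, Rhag, of the Rh complex, was above it on 2, and Ermap was above it on all 24 but under the limit for testing. The erythroid transcription factors Klf1 and Gata1 passed that limit, at means of 8.42 and 8.18.

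The adult globins and Alas2 were lower in hyperoxia than in room air at every age on average. Over the 4 ages, Alas2 differed by -1.08 ± 0.19 (log2 hyperoxia minus room air, SE of the fit, 12 arrays in each condition), which is 0.473 times the room air level. The faint alpha globin probe set differed by -1.52 ± 0.30, or 0.348 times. The beta globin probe set differed by -0.63 ± 0.16, and the brightest and the other bright alpha globin probe set by -0.53 ± 0.16 and -0.46 ± 0.13. The median over all 15838 tested probe sets was 0.00. In that ranking the faint alpha globin probe set had the lowest difference and Alas2 the third lowest.

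All 5 tested probe sets had a lower mean in hyperoxia at each of the 4 ages, which held for 6.98% of all tested probe sets. Of all tested probe sets, 0.48% were called lower in hyperoxia averaged over the ages. The 3 hyperoxia arrays lay below the 3 room air arrays for 5 of 5 at day 7, 0 at day 8, 4 at day 10 and 5 at day 12. The share of all tested probe sets with such a separation was 2.93%, 5.5%, 11.9% and 6.69% on these days. At 3 or more days 4 of the 5 were separate in this way, against 0.524% of all; the other bright alpha globin probe set overlapped at day 10. Because the difference from room air led to the choice of these genes, nothing further is read from these counts.

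**Figure D1:**
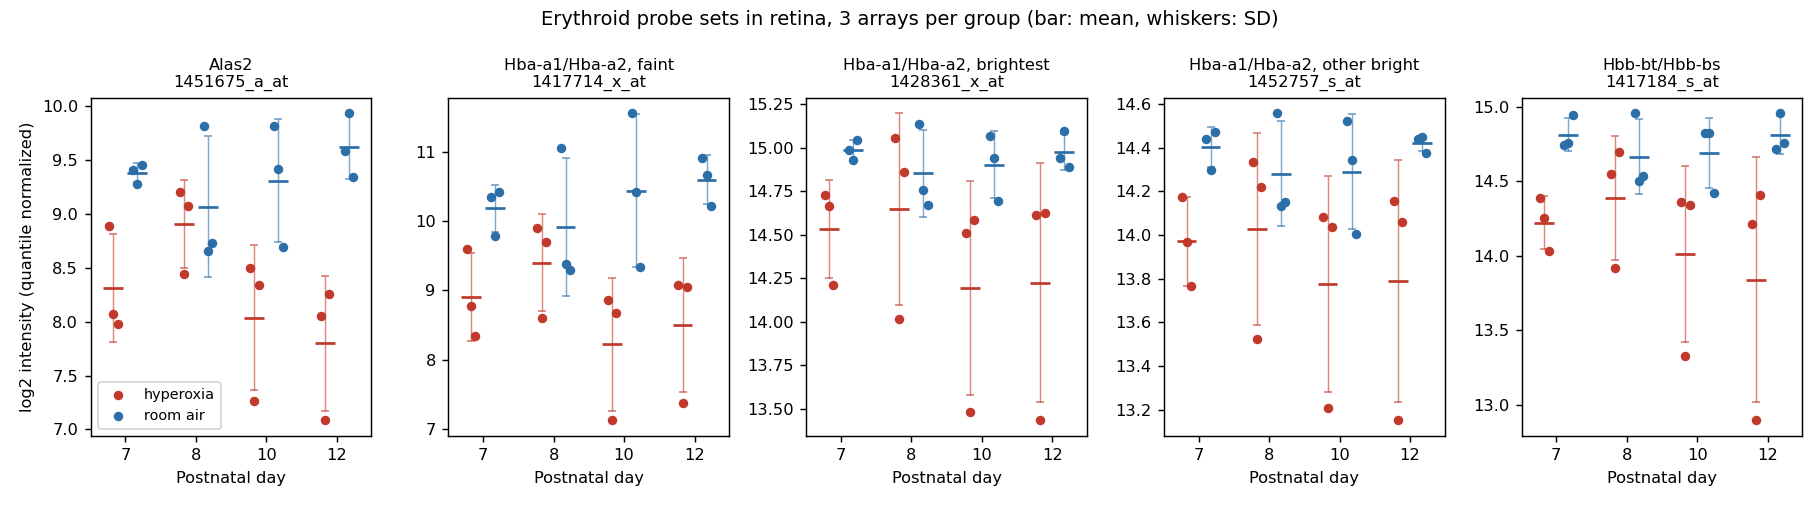
Log2 quantile normalized intensity (vertical axes, a different range in each panel) of the 5 tested probe sets by postnatal day, with hyperoxia in red to the left of room air in blue. Points are arrays, bars the mean and whiskers the SD of 3 arrays, and the lowest red points at days 8, 10 and 12 are replicate 2.

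Alas2 gave log2 signals of 8.89, 8.07 and 7.98 on the hyperoxia arrays of day 7, against 9.41, 9.28 and 9.46 on the room air arrays. The groups did not overlap, and the difference was -1.07 ± 0.39. At day 8 the values were 9.21, 8.44 and 9.08 in hyperoxia and 9.82, 8.66 and 8.73 in room air. Here 2 hyperoxia arrays stood above 2 room air arrays, and the difference was -0.16 ± 0.39.

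At day 10 Alas2 read 8.50, 7.26 and 8.34 in hyperoxia, against 9.82, 9.41 and 8.69 in room air (-1.27 ± 0.39). At day 12 it read 8.05, 7.08 and 8.26 in hyperoxia, against 9.58, 9.93 and 9.35 in room air. The groups were apart on both days. The day 12 difference was -1.82 ± 0.39, or 0.283 times the room air level. It includes 1 hyperoxia array, replicate 2, at the floor, with a deposited intensity of 30.8. With the floor at the 10th percentile the difference was -2.28, and without this array it was -1.46.

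The tested alpha globin probe sets, too, were closest to their room air level at day 8. On the faint alpha globin probe set the hyperoxia arrays read 9.60, 8.78 and 8.35 at day 7, against 10.34, 9.79 and 10.41 in room air. The difference at day 7 was -1.27 ± 0.60, at day 8 -0.51 ± 0.60, at day 10 -2.22 ± 0.60 and at day 12 -2.09 ± 0.60. At day 10 the hyperoxia arrays read 8.87, 7.13 and 8.67 and the room air arrays 11.55, 10.42 and 9.34. At day 12 they read 9.07, 7.38 and 9.05 in hyperoxia and 10.91, 10.66 and 10.21 in room air. Both days had the 3 hyperoxia arrays below all 3 room air arrays, with the lowest reading in replicate 2.

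The bright alpha globin probe sets stood near the top of the array. The mean of the brightest alpha globin probe set ranked 52nd and that of the other bright alpha globin probe set 213th from the brightest, and that of the faint alpha globin probe set near the middle, at the 53.9th percentile. The 12 hyperoxia arrays of the brightest alpha globin probe set lay between 13.43 and 15.06 with a median of 14.60, and the 12 room air arrays between 14.67 and 15.14 with a median of 14.94. Its differences were -0.45 ± 0.31, -0.21 ± 0.31, -0.71 ± 0.31 and -0.75 ± 0.31 at days 7, 8, 10 and 12. Those of the other bright alpha globin probe set lay between -0.63 and -0.25. The bright and the faint probe sets of the same 2 genes therefore had the same direction at each day and differed in size, and whether signal near the upper end of the scale played a part was not tested.

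The beta globin probe set read 14.39, 14.25 and 14.03 in hyperoxia at day 7, against 14.74, 14.76 and 14.94 in room air. At day 12 it read 14.22, 12.90 and 14.41 in hyperoxia, against 14.72, 14.96 and 14.76 in room air. The 2 conditions were separate on these days, with differences of -0.59 ± 0.31 and -0.97 ± 0.31. At days 8 and 10 the differences were -0.28 ± 0.31 and -0.68 ± 0.31, and the groups overlapped at day 8.

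At days 8, 10 and 12, hyperoxia replicate 2 had the lowest reading of each tested probe set among all arrays of its age. Without the day 10 array, the day 10 difference of the beta globin probe set was -0.33 and those of the brightest alpha globin probe set and the other bright alpha globin probe set -0.35 and -0.23. Without the array of day 12, the day 12 differences were -0.50, -0.36 and -0.31. Without these arrays, the day 10 and day 12 differences were -0.89 and -1.46 for Alas2. For the faint alpha globin probe set they were -1.67 and -1.53. With these day 10 and day 12 arrays left out and that of day 8 kept, the mean difference over the 4 ages was -0.90 for Alas2 and -1.25 for the faint alpha globin probe set. It was -0.43 for the beta globin probe set, -0.34 for the brightest alpha globin probe set and -0.31 for the other bright alpha globin probe set. Among arrays of replicate number 1 alone the mean difference of Alas2 was -0.996, among those of number 2 -1.61 and among those of number 3 -0.64. In that order it was -0.43, -1.16 and -0.29 for beta globin and -1.61, -2.09 and -0.87 for the faint alpha globin probe set. For the brightest alpha globin probe set it was -0.31, -1.03 and -0.25, and for the other bright one -0.30, -0.84 and -0.23. Each probe set thus had its largest difference among arrays of replicate number 2.

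The small day 8 differences rested on single arrays. Without room air replicate 1, Alas2 differed by 0.21 and the faint alpha globin probe set by 0.06 at day 8. Without hyperoxia replicate 2, Alas2 differed by 0.07 and the brightest alpha globin probe set by 0.11, and the other bright probe sets by -0.04 for beta globin and -0.0028 for the other bright alpha globin probe set. Day 7 was less dependent on 1 array, although the difference of the brightest alpha globin probe set was -0.29 without hyperoxia replicate 3.

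**Figure D2:**
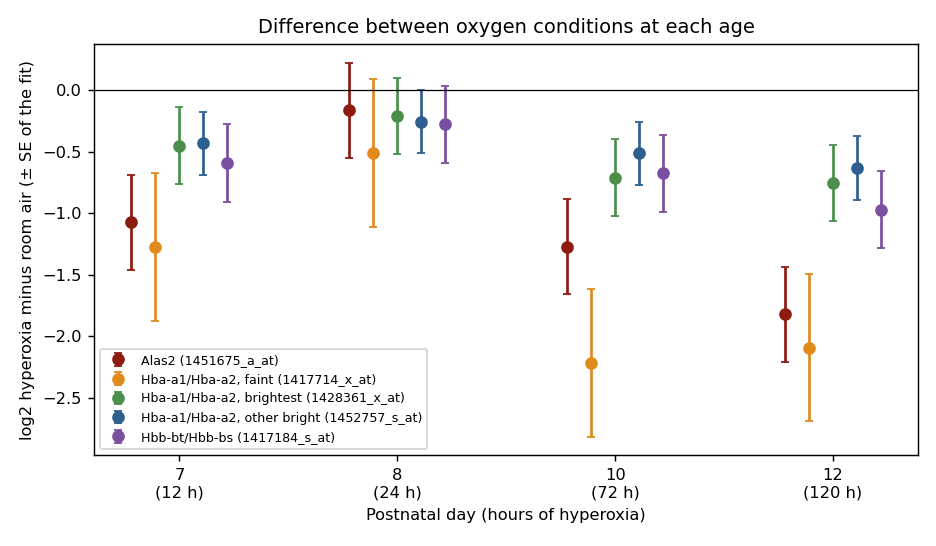
Log2 difference, hyperoxia minus room air (vertical axis), of the 5 tested probe sets at each postnatal day, with the hours of hyperoxia below. Points are differences of means of 3 arrays with the SE of the fit, and they lie closest to 0 at day 8 and lowest for Alas2 and the faint alpha globin probe set at days 10 and 12.

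Whether the oxygen difference itself changed with age was tested with limma across all probe sets. The difference at day 12 minus that at day 7 was -0.75 ± 0.55 for Alas2 (95% interval -1.89 to 0.39, adjusted p = 0.851) and -0.82 ± 0.85 for the faint alpha globin probe set (interval -2.59 to 0.95, adjusted p = 0.882). For the 3 bright globin probe sets it lay between -0.38 and -0.20, with adjusted p of 0.896 to 0.939. Without hyperoxia replicate 2 of day 12, the day 12 differences of beta globin, the brightest and the other bright alpha globin probe set (-0.50, -0.36 and -0.31) were nearer to 0 than those of day 7 (-0.59, -0.45 and -0.43), so their direction rested on that array. An F test over the 4 ages gave Alas2 an unadjusted p of 0.0457 and an adjusted p of 0.753, the lowest of the 5. Of the 15838 probe sets tested with limma, 0 were called in either test (0%), where 983 and 1038 had an unadjusted p under 0.05; 1 was called in the F test when no filter was set. The intervals include 0 and changes of the difference in either direction.

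The level of these transcripts was not detectably different between the ages. Averaged over both oxygen conditions, Alas2 differed by -0.14 ± 0.27 between day 12 and day 7 (95% interval -0.71 to 0.43, adjusted p = 0.777). The beta globin probe set differed by -0.19 ± 0.22 (interval -0.66 to 0.27, adjusted p = 0.593) and the faint alpha globin probe set by 0.00 ± 0.42 (interval -0.88 to 0.89, adjusted p = 0.998). Without hyperoxia replicate 2 of day 12 these values were 0.04 for Alas2, 0.04 for beta globin and 0.28 for the faint alpha globin probe set. None of the 5 passed, against 23% of all tested probe sets, and in the F test over the 4 ages their adjusted p lay between 0.810 and 0.945, where 17.5% of all passed.

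Within hyperoxia, the difference between day 12 and day 7 was -0.51 ± 0.39 for Alas2 (adjusted p = 0.445) and between -0.41 and -0.18 for the globin probe sets, and 0 of 5 passed against 12.6% of all. Without hyperoxia replicate 2 of day 12 this difference was -0.15 for Alas2 and turned to 0.08 to 0.15 for the 4 globin probe sets. In room air Alas2 differed by 0.24 ± 0.39 (adjusted p = 0.762), the faint alpha globin probe set by 0.41 ± 0.60 and the bright globin probe sets by -0.01 to 0.02, and 0 of 5 passed against 12.4% of all. Without room air replicate 2 of day 12 the value of Alas2 was 0.08.

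From array to array the 5 probe sets varied together. Each value was expressed as its deviation from the mean of its group of 3, which removes age and oxygen. Across the 24 arrays, the deviations of Alas2 and of the faint alpha globin probe set had a Pearson r of 0.963 (permutation within groups, two-sided, p = 4e-05, adjusted p = 0.000107) and a Spearman rho of 0.948 (permutation p = 0.00011, adjusted p = 0.00028). With the other 3 globin probe sets, r was 0.864 to 0.907 and rho 0.872 to 0.898, with adjusted permutation p of at most 0.00014 and 0.00028. Without the pair of arrays farthest from the median of Alas2, both of replicate 2 in hyperoxia, r was 0.810 to 0.950. The deviations were still taken from group means that included this pair, so these r are not free of its influence. Among all 10 pairs of the 5 probe sets r of the deviations ran from 0.834 to 0.980. Probe sets of the same array share its RNA, labelling and scaling, and 3 of the 5 measure the same genes. The permutation treats the groups as independent of each other. Because 15 of 24 arrays were most like arrays of their own replicate number, its p-values may be too small.

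**Figure D3:**
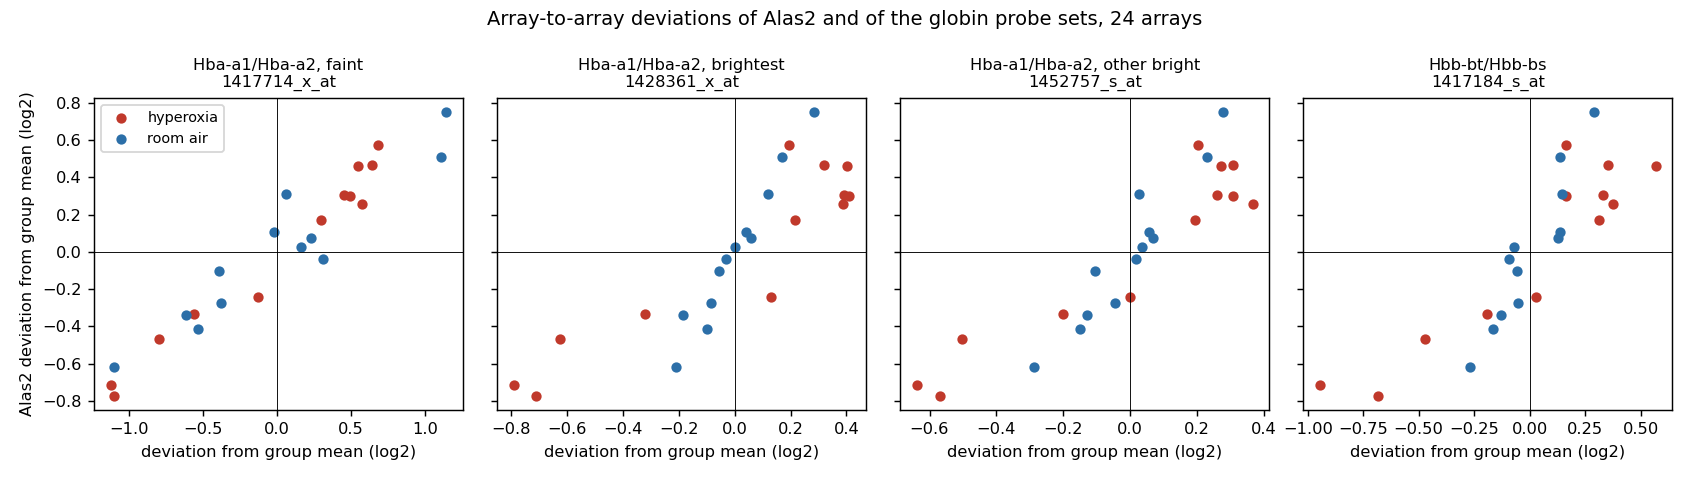
Deviation of Alas2 from its group mean (vertical axis, log2) against that of each globin probe set (horizontal axes, log2) on 24 arrays, 12 in hyperoxia (red) and 12 in room air (blue). The points climb together in all 4 panels, with Pearson r of 0.963 for the faint alpha globin probe set and 0.864 to 0.907 for the others.

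Outside this set, the probe sets whose signal was most like that of Alas2 over the 24 arrays belonged to Nde1 (r = 0.824), Fam220a (0.747), Myh9, a non-muscle myosin (0.723), Plod2, a collagen-modifying enzyme (0.715), Aplnr, the apelin receptor (0.694), Egfl7, a protein secreted by endothelium (0.693), Serpinh1 (0.690) and Gpx3 (0.687). Those most like the brightest alpha globin probe set were Nde1 (0.806), Tmem245 (0.720), Naf1 (0.717), Fam220a (0.713), Oxa1l, Plod2, Tmlhe and Myh9 (0.695 to 0.710). For deviations from group means, Nde1 (0.841), Rit2 (0.787) and Simc1 (0.778) led for Alas2, followed by Scn1a, Gdap10, Mxd4, Slc1a1 and Unc13a (0.725 to 0.756). For the brightest alpha globin probe set, Anp32a (0.843) and Snrk (0.744) led, followed by Incenp, Ccdc166, Dusp19, Nde1, Sqle and Anxa5 (0.715 to 0.744). These are the highest of many correlations and are given as a description. Nde1, which was in all 4 of these lists, differed by -0.20 between hyperoxia and room air. The Egfl7 probe set named here differed by -0.52, while the brightest one for Egfl7, counted among the endothelial genes, differed by -0.09 (adjusted p = 0.797).

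The other genes of the heme pathway had no call between the oxygen conditions, and whether they differ from Alas2 was not tested. Of 14 further genes of heme synthesis and its transport, 12 were tested, and 0 rose and 0 fell in hyperoxia averaged over the ages, where 0.499% of all probe sets were called. Of the 12, 3 had a negative difference, and their median was 0.07. Urod, a decarboxylase of the pathway, was at 0.13 ± 0.05 (adjusted p = 0.475), Slc25a38, the mitochondrial glycine carrier, at 0.15 ± 0.09 (adjusted p = 0.691), Ppox, a late oxidase of the pathway, at 0.13 ± 0.08 (adjusted p = 0.730) and Tmem14c, a porphyrin transporter, at -0.13 ± 0.06 (adjusted p = 0.587). These enzymes serve heme synthesis in other cells as well.

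Genes of erythroid precursors, the red cell membrane and red cell enzymes likewise had no call. Of 9 tested erythroid regulators 1 was negative (median 0.05), with Gata1 at 0.12 ± 0.12 (adjusted p = 0.830), Klf1 at 0.02 ± 0.16 (adjusted p = 0.989) and Zfpm1, the GATA1 cofactor, at 0.24 ± 0.07 (adjusted p = 0.252). Of 10 tested membrane genes 3 were negative (median 0.08), and of 8 tested enzymes 5 were (median -0.01). Under the limit for testing were 4 of 13 regulators, 7 of 17 membrane genes and 6 of 14 enzymes on the array. How much of the signal of the tested genes comes from red cells was not tested, so the lack of calls does not describe red cells alone. Of 12 tested genes of iron and heme handling 0 were called and 3 were negative (median 0.09). Those of lowest p were Slc40a1, the iron exporter, at -0.30 ± 0.10 (adjusted p = 0.304), Hmox2, a heme oxygenase, at -0.16 ± 0.06 (adjusted p = 0.382) and Slc11a2, an iron importer, at 0.15 ± 0.05 (adjusted p = 0.398). The globins of other tissues, Ngb of neurons and Cygb, were at 0.42 ± 0.15 (adjusted p = 0.367) and 0.05 ± 0.06 (adjusted p = 0.881).

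Genes of other blood cells had no call either. Of 5 tested platelet genes 0 were negative (median 0.12) and of 5 tested leukocyte genes 1 was (median 0.14), with 0 called in either list. Their summed signals overlapped between conditions, at 11.45 to 12.09 in hyperoxia and 11.55 to 12.00 in room air for platelets. Under the limit for testing were 3 of 8 platelet genes and 7 of 12 leukocyte genes on the array.

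Of 17 tested endothelial genes 8 fell and 0 rose in hyperoxia (16 negative, median -0.43), where 0.48% of all tested probe sets fell. The other 9 did not pass. Cldn5, a tight junction protein, fell by 0.66 ± 0.10 (adjusted p = 0.00104), Cd93, a surface receptor, by 0.87 ± 0.14 (adjusted p = 0.00239), Ramp2, a co-receptor of adrenomedullin, by 0.51 ± 0.08 (adjusted p = 0.00373) and Eng, a TGF-beta co-receptor, by 0.63 ± 0.11 (adjusted p = 0.00494). The other 4 were Cd34, Aplnr, Sox18 and Sox17, with differences of -0.79 to -0.43. Of 11 tested genes of the oxygen response 7 fell and 0 rose (median -0.57), beside the same 0.48% of all: Bnip3, Pfkl, Pfkp, Vegfa, Ak4, Slc16a3 and Pdk1. Both lists were chosen with earlier results of these data known, so their counts are a description and not an independent test. The log2 of the summed linear signals of the endothelial genes was 13.77 to 14.13 in hyperoxia and 13.97 to 14.76 in room air, and at days 10 and 12 the groups did not overlap. Bright genes weigh most in this sum, above all Kdr (mean 11.96, oxygen difference 0.01). Within groups, the deviation of this sum from its group mean was related to that of Alas2 with r = 0.302 and rho = 0.287 (permutation p = 0.256 and 0.271, adjusted p = 0.341 and 0.361). Without the pair of arrays farthest from the median of Alas2, r was 0.436, with the group means again including that pair. The part of the endothelial difference in the erythroid one was not tested.

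Lens and pigment epithelium, tissues next to the retina, gave signals that varied widely between arrays. Of 11 tested lens genes 10 were negative and 0 were called (median -0.45), and the summed lens signal ran from 11.08 to 17.73 in hyperoxia and from 10.82 to 17.71 in room air. Of 8 tested pigment epithelium genes 8 were negative and 0 were called (median -0.27), with sums of 13.35 to 15.83 in hyperoxia and 13.64 to 15.50 in room air. The deviations of the lens and pigment sums were related to those of Alas2 with r = -0.078 and 0.217 (permutation p = 0.763 and 0.370, adjusted p = 0.763 and 0.423), and that of 11 retinal genes with r = 0.284 (permutation p = 0.210, adjusted p = 0.336); rho was -0.043, 0.165 and 0.307. Adjustment was over the 8 relations with Alas2 that were computed. The retinal genes had 0 calls and a median difference of -0.01. The part of lens and pigment epithelium in the erythroid differences was not tested.

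**Figure D4:**
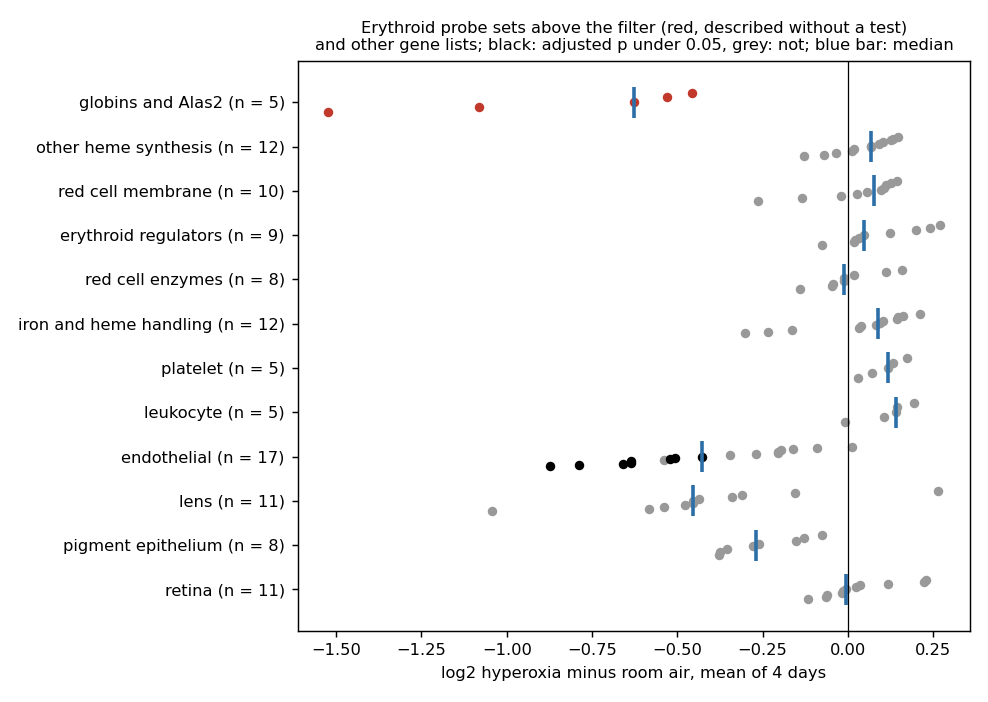
Log2 difference, hyperoxia minus room air averaged over 4 ages (horizontal axis), of the 5 tested erythroid probe sets in red and of the tested genes of 11 other lists (black where the adjusted p was under 0.05, grey otherwise), with the median as a blue bar. The erythroid probe sets run from -1.52 to -0.46, 8 of the 17 endothelial genes are black, and the lists of heme synthesis, red cell membrane and erythroid regulators have medians of 0.05 to 0.08.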

How the data were processed

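For each of 24 arrays of retinal RNA the authors deposited a linear intensity per probe set; the software that made these intensities is not given in the sources used here. These values came already scaled: after trimming 2% at each end, array means lay between 1500.35 and 1500.40, while medians ran from 570.2 to 679.7 (0.25 on the log2 scale). Intensities were therefore quantile normalized, raised to the 20th percentile of the deposited table and taken to log2. The 64 control probe sets and those under the 30th percentile of means were left out, which left 15838. In 1 limma fit (version 3.58.1, R 4.3.3) over 8 groups of 3 arrays, with 16 residual and 3.55 prior degrees of freedom, comparisons were contrasts of group means, with Benjamini-Hochberg adjustment over all tested probe sets and a threshold of 0.05. How many arrays there are sets the precision. The platform annotation gave 1 symbol to 20380 probe sets, several to 691 and none to 1555.

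The members and the gene lists were chosen with earlier results of these data known. Lists count each gene once, by its brightest probe set with 1 symbol. Named for the oxygen difference were genes that were called and at most 4 of lowest p per list, besides Gata1 and Klf1 as defining markers. For age, the called genes of the globin, membrane, regulator, enzyme and iron lists were named. Likeness was ranked over the 8 probe sets with the highest Pearson r. Correlations of deviations were tested by 100000 permutations within groups. Alternatives were the deposited scaling, other floors and filters, a replicate block, a robust prior with a trend and leaving out each array. The procedure was tested on simulated data. Plots used matplotlib 3.10.9 (Python 3.11.15).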

Additional observations from a re-analysis of the deposited data

How the results depend on the processing

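Over the alternatives, 791 of 795 values of hyperoxia minus room air of the 5 tested probe sets were negative; the 4 others, all at day 8, are given above. None of 477 values of day 12 minus day 7 passed, and 33 of them changed sign. Leaving out 1 array, the difference averaged over both conditions ran from -0.25 to 0.04 for Alas2, from -0.34 to 0.04 for beta globin, from -0.14 to 0.28 for the faint alpha globin probe set, from -0.26 to 0.04 for the brightest alpha globin one and from -0.17 to 0.08 for the other bright alpha globin one. Within hyperoxia the range was -0.74 to -0.15 for Alas2, and -0.67 to 0.09, -0.69 to 0.15, -0.51 to 0.08 and -0.37 to 0.14 for these 4 globin probe sets, and within room air -0.0777 to 0.0607 for beta globin, -0.0688 to 0.0330 for the brightest alpha globin one and -0.0341 to 0.0530 for the other bright alpha globin one. With replicate 2 of day 10 and of day 12 in hyperoxia left out together, an alternative chosen after seeing the data, the average over both conditions was 0.0415 for Alas2, 0.0425 for beta globin, 0.0375 for the brightest alpha globin one and 0.0775 for the other bright alpha globin one, and within hyperoxia 0.0894 for beta globin, 0.153 for the faint alpha globin probe set, 0.0847 for the brightest alpha globin one and 0.136 for the other bright alpha globin one. On the deposited scaling the brightest alpha globin one was at 0.0047 in room air, and with the floor at the 30th percentile Alas2 was at 0.0019 over both conditions. With the filter at the 50th percentile Alas2 was not tested.

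The number of probe sets called between day 12 and day 7 in room air, 1959, ran from 1193, without room air replicate 3 of day 7, to 2114 when 1 array was left out. For the hyperoxia difference at day 12 minus that at day 7, 0 to 2 probe sets were called when 1 array was left out, 2 without hyperoxia replicate 1 of day 12, and 1 with the replicate block. For any change of the hyperoxia difference among days, 1 was called without a filter. The other alternatives kept these 7 counts within 1.5 times. The labels do not say that replicate numbers pair the arrays, and the arrays did not meet the criterion that every pair correlate over 0.1: the correlation of deviations of same-numbered arrays of 1 day was over 0.1 in 5 of 12 pairs (-0.31 to 0.44), at day 12 in all 3 (0.23 to 0.44). As a hint of shared structure, 15 of 24 arrays were most like arrays of their own number, and the replicate block moved the calls between the ages from 3636 to 3989 and those between oxygen conditions from 79 to 99. The cause of the changes was not tested. The faint probe sets are limited by signal near the floor.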

Other observations

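With 23% of all tested probe sets called between day 12 and day 7, the counts for the membrane, iron, regulator and enzyme lists are near that share, and the values are those of single genes. Averaged over both oxygen conditions, Aqp1, a water channel, rose by 2.18 ± 0.15 on the log2 scale at day 12 relative to day 7 (adjusted p = 4.69e-09, limma), and Dmtn, an actin-bundling protein, by 0.50 ± 0.11 (adjusted p = 0.00243), while Sptb, the erythroid beta spectrin, fell by 0.35 ± 0.11 (adjusted p = 0.0298). Of 10 tested genes of the red cell membrane list, which holds these 3, 2 rose and 1 fell.

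Among 12 tested genes of iron and heme handling, 3 rose and 1 fell with age, beside the 23% of all tested probe sets. Slc11a2, an iron importer, rose by 0.40 ± 0.08 (adjusted p = 0.000674), Tfrc, the transferrin receptor, by 0.42 ± 0.10 (adjusted p = 0.0038) and Blvra, a biliverdin reductase, by 0.41 ± 0.13 (adjusted p = 0.0306). Ireb2, which represses or stabilises mRNAs by iron state, fell by 0.44 ± 0.10 (adjusted p = 0.00235). Of 12 heme synthesis genes 0 changed with age. Of 9 tested erythroid regulators 0 rose and 2 fell, with Kit at -0.81 ± 0.10 (adjusted p = 4.01e-06) and Ldb1 at -0.79 ± 0.12 (adjusted p = 7.7e-05). Of 8 tested red cell enzymes 1 rose and 1 fell, with Car2 at 0.33 ± 0.07 (adjusted p = 0.0020) and Prdx2 at -0.35 ± 0.07 (adjusted p = 0.000866). Cygb, a globin of many tissues, rose by 0.34 ± 0.09 (adjusted p = 0.00845).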
